A study of Mus musculus with 19 samples.

Results

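The collagen genes are the 44 rows of the deposited table whose mouse symbol is Col, a number, the letter a and a second number, out of 54176 rows, and 40 of the 44 had enough counts to be tested. Transcripts came from the gastrocnemius, the large muscle of the calf, in mice of the FVB strain and fell into 4 groups. The mCK-hLPL mice carried human lipoprotein lipase, an enzyme that frees fatty acids from circulating triglyceride, driven by the muscle creatine kinase promoter, which is active in muscle; WT mice were wild type. Muscle was taken on the first day of regain, when refeeding had lasted 24 hours (REL), or during weight loss maintenance (WLM). There were 5 libraries of mCK-hLPL_REL, 5 of mCK-hLPL_WLM, 4 of WT_REL and 5 of WT_WLM. All of these mice were thus weight-reduced or refed animals of 1 strain, and no group without weight loss was among the samples used here. The labels used here give no age and do not state whether libraries came from different animals, so the p-values measure the spread between these libraries only.

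Collagens are secreted proteins whose chains wind into triple helices in the endoplasmic reticulum, after proline and lysine residues have been hydroxylated. Fibril-forming types build the connective tissue around muscle fibres and in tendon, type IV builds the network of basement membranes, and type VI forms beaded microfilaments that link the fibre surface to the matrix. In skeletal muscle most fibrillar collagen transcripts come from fibroblast-like cells lying between the fibres, not from the fibres themselves. In whole tissue, fewer cells of a type and less RNA per cell cannot be told apart.

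Total counts ran from 35595030 to 51073355 per library. Muscle fibre markers summed to 96119 to 151628 CPM (counts scaled to TMM-adjusted library size). The human transgene was not analysed here: the table has 1 Lpl row, under the mouse symbol, at 692 to 941 CPM in mCK-hLPL_REL, 649 to 815 in mCK-hLPL_WLM, 496 to 754 in WT_REL and 562 to 764 in WT_WLM, and whether human reads were counted there is not given. Some libraries stood apart. Lymph node markers reached 36.5 to 44.5 CPM in WT_WLM replicates 1 and 5 and mCK-hLPL_WLM replicate 3, and liver markers were highest in mCK-hLPL_REL replicates 4 and 5 and WT_REL replicate B. WT_REL replicate A held 106.8 CPM of summed tendon cell markers, against 399 to 460 CPM in the other 3 WT_REL libraries. It was also the lowest WT_REL library in fibroblast markers, at 1102 CPM against 1762 to 1968 CPM. Its macrophage markers were likewise lowest, at 84.3 CPM against 120 to 141 CPM. mCK-hLPL_REL replicate 2 had the highest collagen sum and also the highest sums of epidermal markers, 12.5 CPM against 0.774 to 2.27 CPM in the other 18 libraries, of macrophage markers (191 CPM, the next library 156 CPM) and of fat cell markers (477 CPM, the next 462 CPM). The part of these markers in the collagen values was not tested, and results that rest on this library are also given without it.

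Collagen transcripts summed to 624 to 1505 CPM in mCK-hLPL_REL (median 854) and to 337 to 741 CPM in mCK-hLPL_WLM (median 587). They summed to 740 to 1121 CPM in WT_REL (median 1035) and to 351 to 666 CPM in WT_WLM (median 575). The REL and WLM sums thus overlapped in mCK-hLPL and did not overlap in WT. As a share of all counts, with no TMM scaling, collagens were 0.0628 to 0.169% in mCK-hLPL_REL and 0.0313 to 0.0750% in mCK-hLPL_WLM. The share was 0.0741 to 0.113% in WT_REL and 0.0319 to 0.0625% in WT_WLM. Together, Col1a1, Col1a2 and Col3a1 made up 44.3 ± 3.31% of the collagen sum in mCK-hLPL_REL and 35.2 ± 4.32% in mCK-hLPL_WLM (SD, n = 5 each). In WT they made up 45.7 ± 9.62% in WT_REL (SD, n = 4) and 32.3 ± 5.95% in WT_WLM (SD, n = 5).

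Per kb of annotated exons, the most abundant collagen transcripts over the 19 libraries were Col1a1 at 12.4 CPM per kb, Col4a1 at 10.7, Col6a1 at 10.5, Col1a2 at 10.2, Col3a1 at 9.80 and Col4a2 at 9.03. Col1a1 and Col1a2 encode the chains of type I collagen, the main fibril of tendon and muscle connective tissue, and Col3a1 encodes type III, which shares its fibrils. Col4a1 and Col4a2 encode the chains of the common basement membrane network, and Col6a1 a chain of type VI. Next came Col6a2 at 4.88, Col15a1 at 3.19, Col6a3 at 2.72 and Col5a1 at 2.30 CPM per kb. This order depends on the length used: divided by the longest transcript, Col1a2 stood at 23.7, Col3a1 at 17.3 and Col1a1 at 13.7 CPM per kb, and Col1a2 came first. By group, Col1a1 averaged 16.4 ± 7.20 CPM per kb of exons in mCK-hLPL_REL and 7.05 ± 3.29 in mCK-hLPL_WLM (SD, n = 5 each), against 21.6 ± 9.11 in WT_REL (SD, n = 4) and 6.32 ± 2.79 in WT_WLM (SD, n = 5). Col4a1 averaged 11.9 ± 3.53 CPM per kb in mCK-hLPL_REL and 9.25 ± 3.14 in mCK-hLPL_WLM (SD, n = 5 each). The means of Col4a1 were above those of Col1a1 in both WLM groups and below them in both REL groups, with spreads that overlapped. At the other end, Col9a3 of cartilage, Col25a1, a transmembrane collagen of muscle needed for motor innervation, Col6a4 and Col10a1 of hypertrophic cartilage had 142, 85, 24 and 11 counts over all 19 libraries and were not tested.

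Refeeding was compared with weight loss maintenance by edgeR's quasi-likelihood test over 17028 genes, with Benjamini-Hochberg adjustment and a threshold of 0.05. Averaged over both genotypes, 18 of the 40 collagen genes were higher in REL and 0 were lower. Among all genes tested, 10.7% were called higher and 9.98% lower. The median log2 change was 0.51 over the 40 collagen genes and 0.0014 over all genes, and 38 of the 40 changes were positive. DESeq2 called 20 collagen genes, all higher: the same 18, with Col11a1 and Col2a1, where it called 11.5% of all genes higher. The count was 17 with the 3 libraries rich in lymph node markers left out and 17 without the 3 libraries highest in liver markers. It was 15 without both mCK-hLPL_REL replicate 2 and WT_REL replicate A. Of these calls, 16, 17 and 13, in the same order, were among the 18 of the main test. Calls over all genes in these settings, in the same order, were 2674, 2829 and 2852, against 3521 in the main test. Left out singly, the libraries moved the collagen count between 14 and 20, and it was 14 without mCK-hLPL_REL replicate 2.

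**Figure D1:**
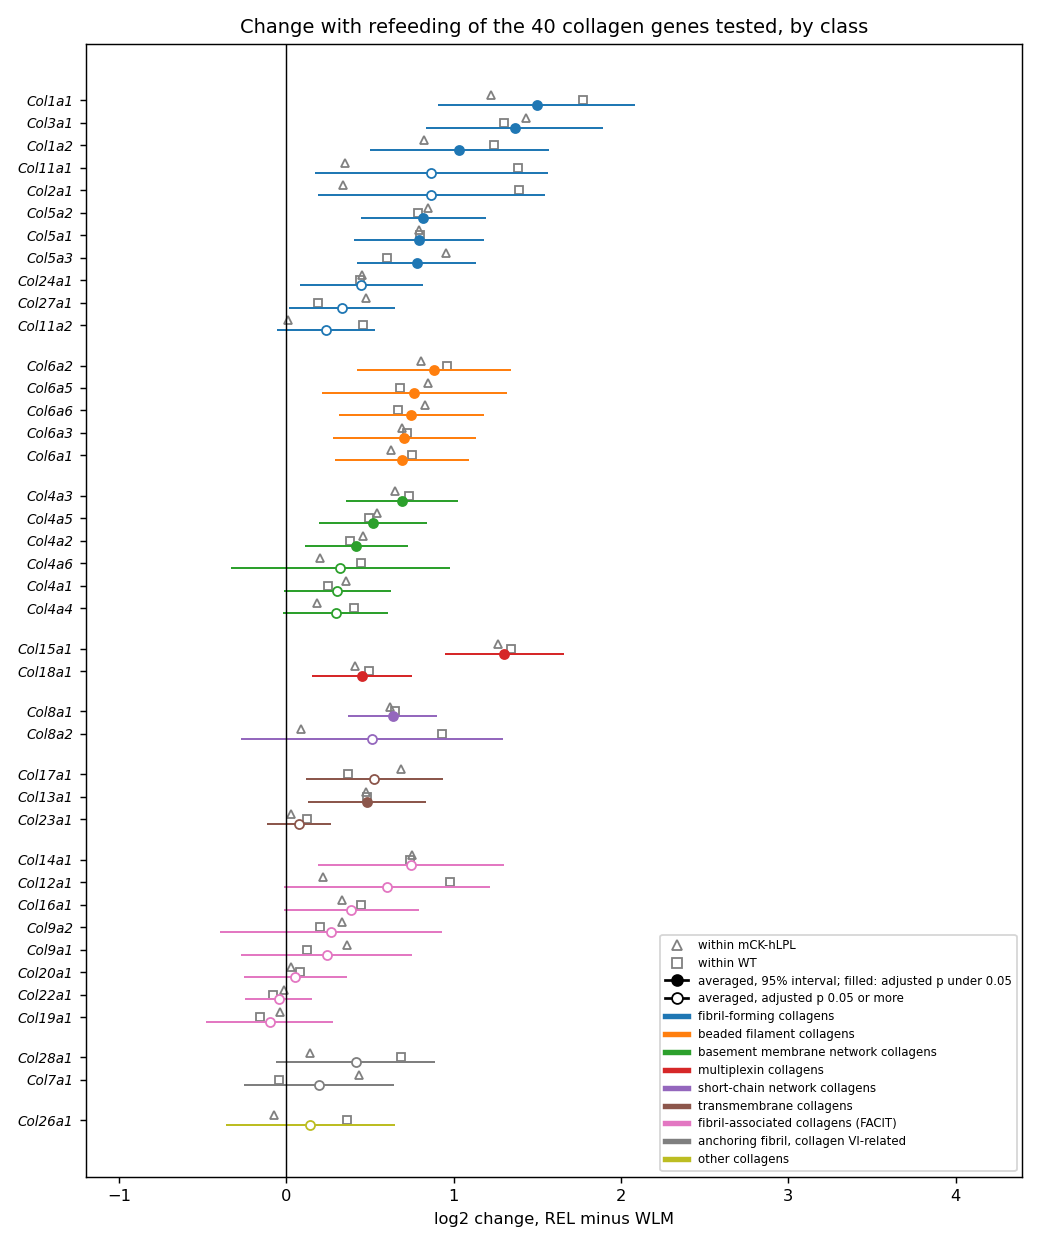
Log2 change with refeeding (REL minus WLM) of the 40 collagen genes tested, by class; filled circles passed an adjusted p of 0.05 averaged over genotypes, bars are 95% intervals, and triangles and squares are the changes within mCK-hLPL and within WT. Of the 40 circles, 38 lie right of 0; Col1a1, Col3a1, Col15a1 and Col1a2 lie beyond 1.

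The fibril-forming class held the 2 highest averaged changes, of Col1a1 and Col3a1: 6 of its 11 members rose, with a median log2 change of 0.82. Col3a1 measured 116, 332, 149, 76.3 and 105 CPM in mCK-hLPL_REL, against 84.6, 39.1, 30.2, 65.3 and 70.0 CPM in mCK-hLPL_WLM. It measured 134, 150.4, 97.3 and 123 CPM in WT_REL, against 57.3, 71.8, 34.6, 31.5 and 60.9 CPM in WT_WLM. All WT_REL libraries were above all WT_WLM libraries; in mCK-hLPL the lowest REL value lay below the highest WLM value, and replicate 2 of REL, the library highest in epidermal, macrophage and fat cell markers, stood far above the rest. The log2 change was 1.36 ± 0.25 averaged over genotypes (± SE, edgeR adjusted p = 0.00104). It was 1.43 ± 0.35 in mCK-hLPL (adjusted p = 0.0183) and 1.30 ± 0.37 in WT (adjusted p = 0.0464). Without mCK-hLPL_REL replicate 2 the change in mCK-hLPL no longer passed and was 0.96, the lowest value with any library left out, and it was also lost without mCK-hLPL_WLM replicate 2 or 3. The call in WT was lost without any 1 of 11 libraries, and the averaged call was kept without each of the 19.

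Col1a1 measured 102, 176, 132, 68.3 and 61.3 CPM in mCK-hLPL_REL, against 70.9, 25.4, 23.0, 49.3 and 62.9 CPM in mCK-hLPL_WLM. It measured 194, 184, 64.9 and 124 CPM in WT_REL, against 47.6, 67.3, 28.8, 19.8 and 43.9 CPM in WT_WLM. The groups overlapped in both genotypes, in WT through replicate A of WT_REL. The log2 change was 1.5 ± 0.28 averaged over genotypes (edgeR adjusted p = 0.00113) and 1.77 ± 0.41 in WT (adjusted p = 0.0183). The call in WT was lost without WT_REL replicate 1 or 2 or WT_WLM replicate 3. In mCK-hLPL the change was 1.22 ± 0.39 and did not pass (adjusted p = 0.0570; DESeq2 adjusted p = 0.0296). Its partner Col1a2 changed by 1.03 ± 0.26 averaged over genotypes (edgeR adjusted p = 0.00786) and had 0.82 ± 0.35 in mCK-hLPL (adjusted p = 0.153) and 1.24 ± 0.37 in WT (adjusted p = 0.0589), so it passed within neither genotype. Col1a2 averaged 157 ± 52.1 CPM in mCK-hLPL_REL and 88.5 ± 36.2 CPM in mCK-hLPL_WLM (SD, n = 5 each), with 194 ± 84.0 CPM in the 4 WT_REL libraries and 81.8 ± 35.9 CPM in the 5 of WT_WLM.

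The chains of type V collagen, which starts type I fibrils and limits their width, rose together. The averaged log2 changes were 0.82 ± 0.18 for Col5a2 (edgeR adjusted p = 0.00347), 0.79 ± 0.19 for Col5a1 (adjusted p = 0.00561) and 0.78 ± 0.17 for Col5a3 (adjusted p = 0.00346). Col5a3 measured 12.5, 26.3, 19.6, 11.8 and 11.9 CPM in mCK-hLPL_REL, against 10.9, 6.41, 5.86, 9.79 and 9.42 CPM in mCK-hLPL_WLM, with no overlap. In WT it measured 11.3, 10.7, 18.4 and 16.8 CPM in REL, against 8.92, 9.43, 7.52, 9.10 and 12.1 CPM in WLM, and these overlapped. Its change passed in mCK-hLPL (0.96 ± 0.23, edgeR adjusted p = 0.0179) and not in WT (0.60 ± 0.25, adjusted p = 0.168). Col5a2 likewise passed in mCK-hLPL (0.85 ± 0.25, adjusted p = 0.0400) and had 0.79 ± 0.26 in WT (adjusted p = 0.0843). The difference between the genotypes' changes did not pass for either gene: 0.36 for Col5a3 (95% interval -0.36 to 1.07) and 0.06 for Col5a2 (-0.69 to 0.80), interaction adjusted p = 1.0 for both. Without mCK-hLPL_REL replicate 2, or mCK-hLPL_WLM replicate 2 or 3, neither gene passed in mCK-hLPL; the call of Col5a2 was also lost without mCK-hLPL_REL replicate 3, mCK-hLPL_WLM replicate 5 or WT_REL replicate 2.

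The remaining fibril-forming members did not pass. Col11a1 and Col2a1, best known from cartilage and in part expressed in tendon, had log2 changes of 0.87 ± 0.33 (edgeR adjusted p = 0.0717) and 0.87 ± 0.32 (adjusted p = 0.0646). DESeq2 gave them adjusted p = 0.0399 and 0.0471. Col11a1 measured 4.14, 4.50, 0.579 and 3.63 CPM in WT_REL, against 1.52, 2.42, 1.22, 0.495 and 0.530 CPM in WT_WLM. WT_REL replicate A thus lay within the WLM range and the other 3 above it. Replicate A was the lowest WT_REL library in tendon cell, fibroblast and macrophage markers. The edgeR call was made without that library. Of 6 cartilage markers 2 had enough counts to be tested, 0 rose and 1 fell: Sox9, a transcription factor of cartilage that tendon cells also express, at -0.53 ± 0.16 (edgeR adjusted p = 0.0230). The 6 summed to 1.53 to 2.11 CPM in mCK-hLPL_REL and 1.44 to 3.17 CPM in mCK-hLPL_WLM, and to 1.65 to 2.68 CPM in WT_REL and 1.87 to 4.08 CPM in WT_WLM. Most of each sum was Sox9, while Matn1 and Snorc reached at most 0.0244 and 0.0225 CPM in any library. Col24a1, Col27a1 and Col11a2 had averaged changes of 0.45, 0.33 and 0.23.

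**Figure D2:**
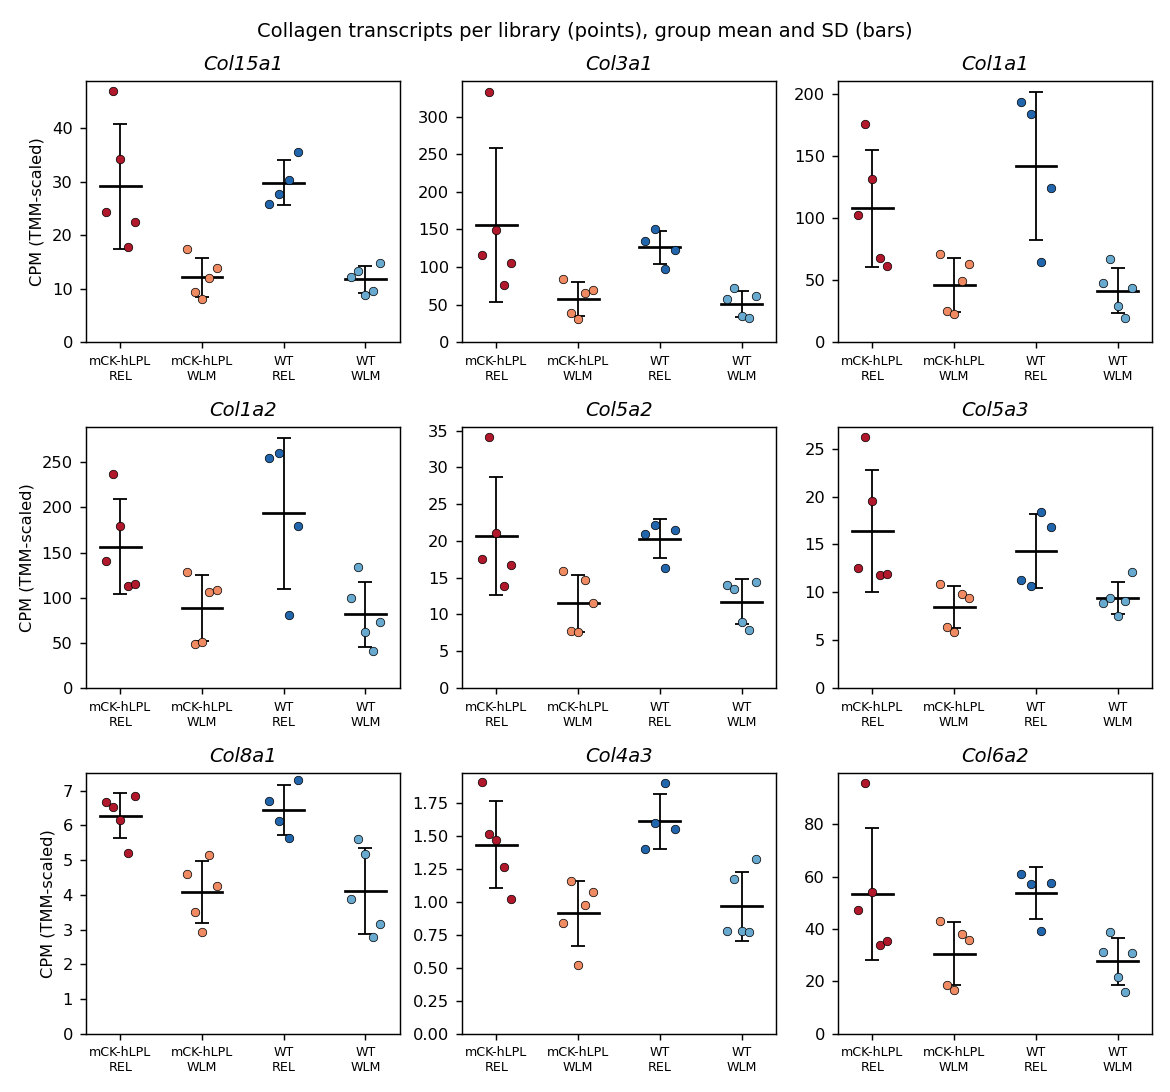
CPM of 9 collagen genes in each library (points), with group means and SD (bars), REL left of WLM within each genotype. Col15a1 and Col8a1 show no overlap between REL and WLM in either genotype; mCK-hLPL_REL replicate 2 is the highest point for Col3a1 at 332 CPM.

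The multiplexins, collagens with interrupted helices found at basement membranes, both rose. Col15a1, located at the outer face of the basement membranes of muscle fibres and capillaries, had the smallest p-value of the family. It measured 24.4, 46.9, 34.2, 17.7 and 22.4 CPM in mCK-hLPL_REL, against 17.3, 9.39, 8.16, 11.9 and 13.9 CPM in mCK-hLPL_WLM. It measured 25.9, 27.7, 30.4 and 35.5 CPM in WT_REL, against 12.3, 13.2, 8.82, 9.63 and 14.9 CPM in WT_WLM. No REL library fell within the WLM range in either genotype. The averaged log2 change was 1.30 ± 0.17 (edgeR adjusted p = 6.07e-05), with 1.26 ± 0.24 in mCK-hLPL (adjusted p = 0.00389) and 1.34 ± 0.25 in WT (adjusted p = 0.00525). Col15a1 was the collagen gene that passed within each genotype whichever single library was left out. Its call in WT was lost over the 17 numbered libraries, both with a block for replicate number and without it. In WT these settings called 32 and 166 of all genes. Col18a1, a multiplexin of vessel basement membranes whose end fragment is endostatin, rose by 0.45 ± 0.14 on average (adjusted p = 0.0303); this call was lost without any 1 of 5 libraries (WT_WLM replicate 3, mCK-hLPL_WLM replicates 2 and 3, WT_REL replicate B, mCK-hLPL_REL replicate 2).

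Of the short-chain network collagens, Col8a1, made in vessel walls, rose and its partner chain Col8a2 did not pass. Col8a1 measured 6.67, 6.53, 6.14, 5.20 and 6.84 CPM in mCK-hLPL_REL, against 4.61, 3.50, 2.92, 5.14 and 4.27 CPM in mCK-hLPL_WLM. In WT it measured 6.69, 6.12, 5.62 and 7.29 CPM in REL, against 3.87, 5.59, 5.17, 2.77 and 3.16 CPM in WLM. Neither genotype showed overlap, although 5.20 against 5.14 and 5.62 against 5.59 CPM were close. The averaged log2 change was 0.63 ± 0.13 (edgeR adjusted p = 0.00176), with 0.62 ± 0.17 in mCK-hLPL (adjusted p = 0.0351) and 0.65 ± 0.18 in WT (adjusted p = 0.0470). The calls within a genotype were fragile: that in mCK-hLPL was lost without any 1 of 7 libraries and that in WT without any 1 of 12, while the averaged call was kept without each of the 19. Col8a2 had 0.51 ± 0.37 (adjusted p = 0.360) and was at 0.827 CPM in WT_REL replicate A, against 3.38 to 4.01 CPM in the other 3 WT_REL libraries.

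All 5 beaded filament (type VI) genes tested rose on average, with a median log2 change of 0.75. Mutations in human COL6A1, COL6A2 and COL6A3 cause muscle disease. Col6a2 rose by 0.88 ± 0.22 (edgeR adjusted p = 0.00861), Col6a3 by 0.71 ± 0.20 (adjusted p = 0.0199) and Col6a1 by 0.69 ± 0.19 (adjusted p = 0.0156). Col6a6 and Col6a5, longer chains related to Col6a3, rose by 0.75 ± 0.21 (adjusted p = 0.0156) and 0.76 ± 0.26 (adjusted p = 0.0468). Col6a5 was sparse, at 0.122 to 0.845 CPM, and its call was lost without any 1 of 11 libraries. Col6a2 measured 47.3, 95.7, 54.3, 33.7 and 35.5 CPM in mCK-hLPL_REL, against 43.1, 18.7, 16.5, 38.2 and 35.8 CPM in mCK-hLPL_WLM, and 61.1, 57.2, 39.2 and 57.4 CPM in WT_REL, against 31.0, 38.9, 21.5, 15.9 and 30.9 CPM in WT_WLM. The groups overlapped in mCK-hLPL and lay apart, narrowly, in WT. No type VI gene passed within a single genotype by edgeR, and Col6a6 passed in mCK-hLPL by DESeq2 (adjusted p = 0.0387).

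Of the 6 basement membrane network (type IV) genes, 3 rose, among them 1 chain of the abundant pair Col4a1 and Col4a2. Col4a2 rose by 0.42 ± 0.15 (edgeR adjusted p = 0.0495), a call lost without any 1 of 13 libraries, and Col4a1 had 0.30 ± 0.15 and did not pass (adjusted p = 0.168, 95% interval -0.02 to 0.62). Col4a1 measured 87.5, 127, 98.7, 66.6 and 62.3 CPM in mCK-hLPL_REL, against 97.2, 47.7, 51.0, 91.2 and 58.0 CPM in mCK-hLPL_WLM, and 82.3, 80.9, 101 and 91.1 CPM in WT_REL, against 73.9, 67.4, 73.6, 60.3 and 98.1 CPM in WT_WLM. These ranges overlapped in both genotypes. Col4a3, a chain of the network best known from kidney glomeruli, was near 1 CPM and rose by 0.69 ± 0.16 (adjusted p = 0.00528). It measured 1.91, 1.51, 1.47, 1.27 and 1.02 CPM in mCK-hLPL_REL, against 0.841, 1.16, 0.524, 0.974 and 1.08 CPM in mCK-hLPL_WLM, where the lowest REL library lay within the WLM range. It measured 1.40, 1.60, 1.90 and 1.55 CPM in WT_REL, against 0.783, 1.17, 0.784, 0.774 and 1.33 CPM in WT_WLM, with no overlap. Col4a5, its partner encoded on chromosome X, rose by 0.52 ± 0.15 (adjusted p = 0.0228; lost without WT_REL replicate 2). Part of the Col4a3 exon sequence, 5.65%, is shared with an antisense gene, C430014B12Rik, and the strand setting of the counting is not given.

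Among the transmembrane collagens, Col13a1, a collagen of the neuromuscular junction, rose by 0.48 ± 0.17 (edgeR adjusted p = 0.0490), a call lost without any 1 of 14 libraries. Col17a1 of epidermal hemidesmosomes, at 0.53 ± 0.20, did not pass (adjusted p = 0.0635); its highest value of the 19 libraries, 0.950 CPM, was in mCK-hLPL_REL replicate 2, the library highest in epidermal markers. None of the 8 fibril-associated (FACIT) genes tested passed, and their median log2 change was 0.25. Among all genes 10.7% were called higher and 9.98% lower, so 0 of 8 is not read as particular to this class. Col14a1, which coats type I fibrils, came nearest at 0.74 ± 0.27 (adjusted p = 0.0533). Col12a1, its relative in tendon and muscle, had 0.60 ± 0.29 (adjusted p = 0.160). Col12a1 measured 13.9, 12.7, 3.78 and 13.6 CPM in WT_REL, against 7.63, 9.94, 5.17, 2.0 and 3.31 CPM in WT_WLM, and again replicate A of WT_REL was the one within the WLM range. Col22a1 of the myotendinous junction, at -0.05 ± 0.10, and Col19a1, at -0.10 ± 0.18, were the 2 collagen genes with negative averaged changes. Col17a1, Col14a1, Col12a1, Col8a2, Col22a1 and Col19a1 were singled out after their values were seen. The anchoring fibril gene Col7a1, the type VI-related Col28a1 and Col26a1 did not pass.

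**Figure D3:**
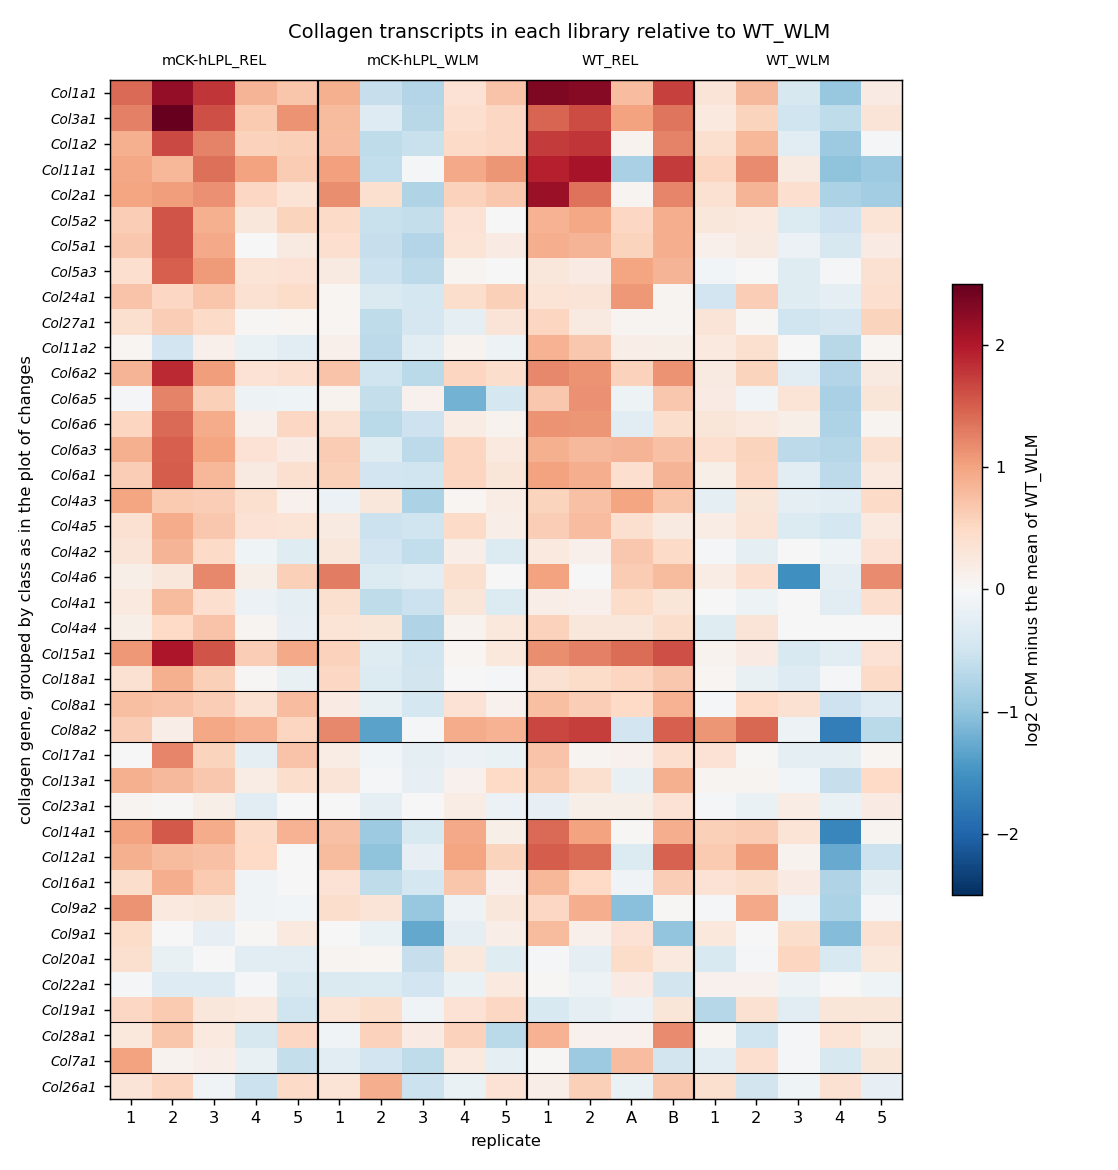
Log2 CPM of each tested collagen gene in each library minus the mean of WT_WLM, genes by class (rows) and libraries by group (columns). mCK-hLPL_REL replicate 2 is the darkest column of the type III, V and VI rows, and WT_REL replicate A is pale or blue for Col11a1, Col12a1 and Col8a2.

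Within a single genotype fewer collagen genes passed. In mCK-hLPL, 5 of 40 were higher and 0 lower (Col15a1, Col3a1, Col5a2, Col5a3, Col8a1), against 4.11% called higher and 4.03% lower among all genes. In WT, 4 of 40 were higher and 0 lower (Col15a1, Col1a1, Col3a1, Col8a1), against 2.63% and 2.25% of all genes. At an unadjusted p under 0.05, 19 of 40 were higher in each genotype, against 12.5% of all genes in mCK-hLPL and 10.6% in WT. DESeq2 called 9 higher in mCK-hLPL, the same 5 with Col1a1, Col4a3, Col5a1 and Col6a6, where it called 5.54% of all genes higher. In WT it called 8 higher, the same 4 with Col1a2, Col4a3, Col5a1 and Col5a2, where it called 3.91% of all genes higher. REL lay wholly above WLM for 3 of 40 genes in mCK-hLPL (Col15a1, Col5a3, Col8a1; 3.21% of all genes) and for 8 of 40 in WT (Col15a1, Col3a1, Col4a3, Col5a1, Col5a2, Col6a2, Col6a3, Col8a1; 5.64% of all genes). The counts of calls rested on single libraries. The 5 calls in mCK-hLPL became 1 without mCK-hLPL_REL replicate 2, or mCK-hLPL_WLM replicate 2 or 3, became 3 without mCK-hLPL_REL replicate 3 or mCK-hLPL_WLM replicate 5, and became 9 without mCK-hLPL_REL replicate 4. The 4 calls in WT became 1 without WT_REL replicate 1 or 2, and 2 without WT_REL replicate B, WT_WLM replicate 1, 3 or 4, mCK-hLPL_WLM replicate 5 or mCK-hLPL_REL replicate 3. With the 3 libraries rich in lymph node markers left out, 1 collagen gene passed in each genotype. Calls over all genes were then 608 in mCK-hLPL and 316 in WT, against 1387 and 831 with all 19 libraries. Without the 3 highest in liver markers, 11 collagen genes passed in mCK-hLPL and 2 in WT. Calls over all genes were then 1573 and 462.

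The series title concerns lipoprotein lipase overexpression, and the genotypes were compared in each phase. By edgeR, 0 of 40 collagen genes differed between mCK-hLPL and WT in REL, in WLM or averaged over both, where 0.0117%, 0.0294% and 0.211% of all genes were called. DESeq2 also called 0 in each, where it called 0.159%, 0.129% and 0.493% of all genes. At an unadjusted p under 0.05 there were 1, 0 and 1, against 4.36%, 4.86% and 6.77% of all genes. The gene behind both was Col11a2, a minor fibrillar chain, named after its values were seen. It measured 6.35, 4.38, 6.69, 5.42 and 5.08 CPM in mCK-hLPL_REL, against 11.2, 9.73, 6.86 and 6.81 CPM in WT_REL, with no overlap but with neighbours at 6.69 and 6.81. Its log2 difference was -0.63 ± 0.20 in REL (unadjusted p = 0.00534, edgeR adjusted p = 0.934). In WLM it measured 6.69, 3.89, 5.11, 6.46 and 5.55 CPM in mCK-hLPL, against 7.21, 8.06, 6.10, 3.76 and 6.34 CPM in WT. For Col15a1 the genotype difference averaged over phases was 0.01 on the log2 scale (95% interval -0.35 to 0.36), for Col3a1 0.24 (-0.29 to 0.77), for Col1a1 -0.12 (-0.70 to 0.46), for Col4a1 -0.06 (-0.38 to 0.26) and for Col6a1 0.05 (-0.35 to 0.45).

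The interaction asks whether the change with refeeding differed between mCK-hLPL and WT. It passed for 0 of 40 collagen genes by edgeR and DESeq2, and for 0 and 2 (0.0117%) of all genes. At an unadjusted p under 0.05 there were 0 collagen genes, against 2.37% of all genes. The intervals were wide: for Col15a1 the difference between the changes was -0.08 (95% interval -0.79 to 0.63), for Col3a1 0.13 (-0.92 to 1.18), for Col1a1 -0.55 (-1.72 to 0.61) and for Col8a1 -0.03 (-0.56 to 0.50).

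Chains of 1 collagen did not always move by the same amount. The pairs below were chosen with the values known; the log2 ratio of their counts, which needs no library scaling, was compared between REL and WLM by a two-sided exact permutation test within genotype over 12 pairs. The ratio of Col1a1 to Col1a2 counts was 0.730, 0.742, 0.735, 0.605 and 0.534 in mCK-hLPL_REL, against 0.552, 0.519, 0.448, 0.466 and 0.581 in mCK-hLPL_WLM. It was 0.761, 0.709, 0.808 and 0.692 in WT_REL, against 0.477, 0.504, 0.461, 0.490 and 0.603 in WT_WLM. WT groups did not overlap, and in mCK-hLPL 1 REL library lay within the WLM range. The log2 ratio was higher in REL by 0.47 (exact permutation p = 0.00022, adjusted p = 0.00265 over the 12 pairs), by 0.38 in mCK-hLPL (exact p = 0.0238) and by 0.55 in WT (exact p = 0.0159), where the smallest p each genotype allows is 0.00794. WT_REL replicate A, low in type I counts, had the highest ratio of its group, 0.808.

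The ratio of Col6a1 to Col6a2 counts moved the other way, by -0.19 on the log2 scale (exact permutation p = 0.000535, adjusted p = 0.00321). The difference was -0.17 in mCK-hLPL (exact p = 0.0556), above the threshold, and -0.21 in WT (exact p = 0.00794, the smallest the test allows). It was 1.07, 0.983, 1.07, 1.14 and 1.22 in mCK-hLPL_REL, against 1.15, 1.26, 1.40, 1.25 and 1.13 in mCK-hLPL_WLM, and 1.08, 1.08, 1.11 and 1.03 in WT_REL, against 1.18, 1.22, 1.26, 1.31 and 1.26 in WT_WLM. The groups overlapped in mCK-hLPL and lay apart in WT. The ratio of Col4a3 to Col4a4 was higher in REL by 0.42 (exact permutation p = 0.00794, adjusted p = 0.0317), by 0.47 in mCK-hLPL (exact p = 0.0317) and by 0.36 in WT (exact p = 0.151), above the threshold. For Col4a1 to Col4a2 the difference was -0.09 (adjusted p = 0.181 by the exact permutation test), and the other 8 pairs did not pass either. A count ratio also depends on transcript length and on which isoforms are read, so its level is not a ratio of chains.

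**Figure D4:**
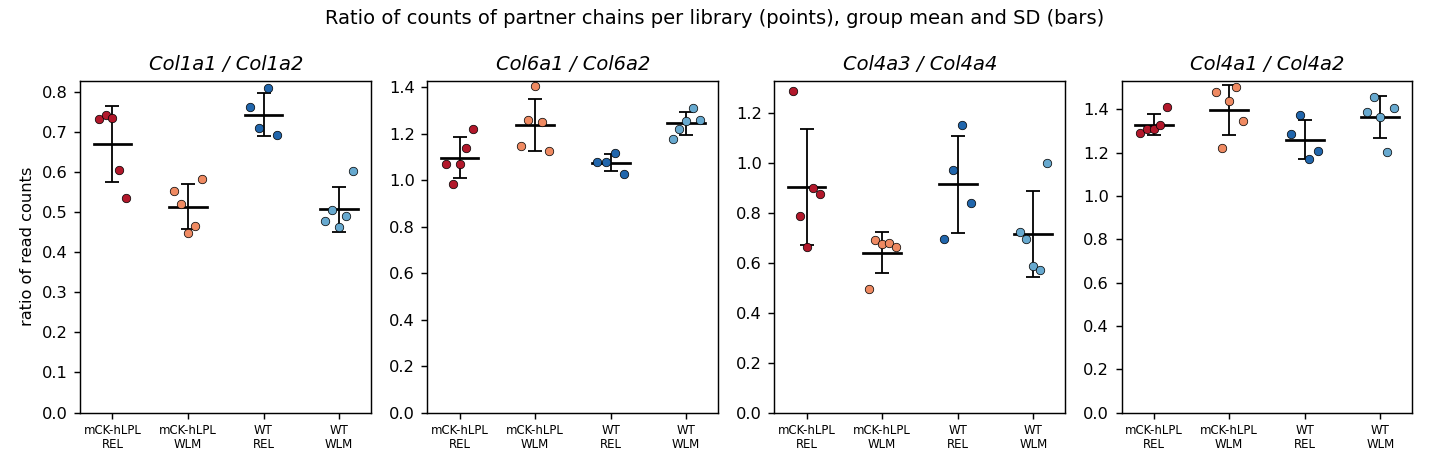
Ratio of read counts of partner chains per library (points), with group means and SD (bars), REL left of WLM within each genotype. Col1a1 to Col1a2 is higher and Col6a1 to Col6a2 lower in REL, both with overlap in mCK-hLPL. The ratio of Col4a1 to Col4a2 overlaps in both genotypes.

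Several collagen genes are neighbours (GENCODE M21, GRCm38). Col4a1 and Col4a2 lie head to head on chromosome 8 with an overlap of 22 bases, and Col4a4 and Col4a3 lie head to head on chromosome 1 with 71 bases between them. Within each pair 1 member passed the averaged test and the other did not: Col4a2 and not Col4a1, Col4a3 and not Col4a4 (0.29 ± 0.15, edgeR adjusted p = 0.173); of the count ratios of these 2 pairs, that of Col4a3 to Col4a4 passed the exact permutation test and that of Col4a1 to Col4a2 did not. Col3a1 and Col5a2, which both rose, lie tail to tail on chromosome 1 with 24.61 kb between them. Col15a1 lies on chromosome 4 from 47208161 to 47313167 (plus strand), Col1a1 on chromosome 11 from 94936224 to 94953042 (plus strand) and Col8a1 on chromosome 16 from 57624258 to 57754737 (minus strand).

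The upstream sequences of 4 genes that passed within at least 1 genotype are given, 250 bases ending just before the RefSeq start (GRCm38.p6), 5′ to 3′ on the gene's strand. Col1a1 and Col5a2 also passed within a genotype, and no such window was available for them. The Col15a1 window ends at 47208011, short of the GENCODE start at 47208161. Capitals mark matches, on either strand, to the TATA box core TATAAA, the CCAAT box, the GC box core GGGCGG (written CCGCCC where the match is on the opposite strand) and the AP-1 site TGACTCA; no match overlaps another in these 4 windows.
Col15a1, chr4:47207762-47208011, plus strand: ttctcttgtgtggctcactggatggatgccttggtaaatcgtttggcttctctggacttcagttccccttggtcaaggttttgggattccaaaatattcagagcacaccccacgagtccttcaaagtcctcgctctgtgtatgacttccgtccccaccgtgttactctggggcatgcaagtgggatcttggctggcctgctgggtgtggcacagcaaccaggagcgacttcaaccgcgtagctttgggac
Col3a1, chr1:45311288-45311537, plus strand: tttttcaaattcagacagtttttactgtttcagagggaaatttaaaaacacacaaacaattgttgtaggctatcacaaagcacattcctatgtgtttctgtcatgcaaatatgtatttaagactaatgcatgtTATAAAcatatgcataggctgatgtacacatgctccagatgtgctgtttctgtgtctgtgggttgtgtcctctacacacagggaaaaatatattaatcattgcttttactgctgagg
Col5a3, chr9:20815068-20815317, minus strand: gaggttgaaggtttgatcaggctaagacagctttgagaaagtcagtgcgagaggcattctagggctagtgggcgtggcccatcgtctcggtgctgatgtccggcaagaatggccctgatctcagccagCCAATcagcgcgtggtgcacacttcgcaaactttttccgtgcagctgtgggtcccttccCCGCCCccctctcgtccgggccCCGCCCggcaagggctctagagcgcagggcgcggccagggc
Col8a1, chr16:57754738-57754987, minus strand: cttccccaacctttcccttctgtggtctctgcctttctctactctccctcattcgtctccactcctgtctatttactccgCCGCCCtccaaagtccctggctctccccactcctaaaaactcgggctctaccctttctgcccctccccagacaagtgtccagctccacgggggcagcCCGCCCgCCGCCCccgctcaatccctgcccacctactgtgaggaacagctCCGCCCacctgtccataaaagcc
The Col15a1 window held none of the 4 motifs, the Col3a1 window held TATAAA 117 bases before the start, the Col5a3 window held CCAAT once and GGGCGG at 2 places, and the Col8a1 window held GGGCGG at 4 places. Over 38 such windows of 35 collagen genes, GGGCGG was found in 57.9%, against 32.7% of 32851 windows of all genes. CCAAT was found in 34.2% of collagen windows and 33.8% of all, TATAAA in 13.2% and 12.4%, and TGACTCA in 2.63%, which was Col6a1 alone, and 4.46%. A match of letters is a description and not a binding site.

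Genes that act on collagen were read from lists chosen with earlier results of these data known, and their counts stand against the 10.7% of all genes that rose and the 9.98% that fell. Of 30 tested genes of collagen folding, processing and cross-linking, 14 rose and 1 fell on average with refeeding, with a median log2 change of 0.33. Serpinh1, the collagen chaperone HSP47, had the smallest p-value of the list and rose by 1.11 ± 0.14 (edgeR adjusted p = 5.35e-05). It averaged 65.0 ± 16.9 CPM in mCK-hLPL_REL and 27.7 ± 6.94 CPM in mCK-hLPL_WLM (SD, n = 5 each), with 58.7 ± 7.66 CPM in the 4 WT_REL libraries and 29.6 ± 7.09 CPM in the 5 of WT_WLM. Adamts2, which removes the N-terminal propeptide of procollagens, rose by 0.58 ± 0.12, Fkbp14, an isomerase of the endoplasmic reticulum, by 0.44 ± 0.10, and P4ha1, a prolyl 4-hydroxylase subunit, by 0.35 ± 0.07 (adjusted p = 0.00276, 0.00483 and 0.00177).

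In the next 4 lists, of 11 to 21 tested genes, 2 to 4 genes rose, where the share of all genes amounts to about 1 to 2, so the counts are not read as particular to these lists. Of 21 tested fibril-binding and interstitial matrix genes, 4 rose and 0 fell: Sparc, a collagen-binding glycoprotein (0.84 ± 0.11, edgeR adjusted p = 6.28e-05), Lum (0.74 ± 0.24), Postn (0.58 ± 0.18) and Dpt (0.46 ± 0.15). Sparc averaged 246 ± 55.0 CPM in mCK-hLPL_REL and 139 ± 31.4 CPM in mCK-hLPL_WLM (SD, n = 5 each), with 239 ± 24.9 CPM in the 4 WT_REL libraries and 132 ± 16.5 CPM in the 5 of WT_WLM. Of 14 basement membrane partners 3 rose, Papln (0.89 ± 0.15), Nid2 (0.62 ± 0.15) and the laminin chain gene Lama4 (0.54 ± 0.12), and 0 fell. Of 17 genes of collagen breakdown 4 rose and 0 fell: Mrc2, an uptake receptor for collagen fragments (0.63 ± 0.16), the metalloproteinase genes Mmp19 (0.60 ± 0.18) and Mmp16 (0.60 ± 0.21), and Fap (0.58 ± 0.18). Of 11 collagen receptor genes 2 rose, Ddr2 (0.49 ± 0.15) and Itga1 (0.25 ± 0.07), and 0 fell. Among TGF-beta ligands and early targets, the ligand gene Tgfb2 rose (0.47 ± 0.10), while Smad7 (-0.44 ± 0.09, edgeR adjusted p = 0.00148) and Skil (-0.32 ± 0.10, adjusted p = 0.0287), both known targets of the pathway, fell. Between the genotypes, averaged over phases, 0 genes of these 6 lists passed, where 0.211% of all genes were called.

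Markers of the cells that make collagen moved in part with it, again against 10.7% of all genes called higher and 9.98% called lower. Of 10 fibroblast markers, 4 rose with refeeding (Clec3b, Fap, Dpt, Lum) and 0 fell, with a median log2 change of 0.40; Fap, Dpt and Lum are also in the lists above. Their sum was 1418 to 1951 CPM in mCK-hLPL_REL and 957 to 2027 CPM in mCK-hLPL_WLM, and 1102 to 1968 CPM in WT_REL and 879.8 to 1932 CPM in WT_WLM, so the ranges overlapped, and none of the 10 was at 0 in any library. With a fibroblast score as a covariate, an alternative added after seeing the data, 15 collagen genes passed the averaged test and 0 were lower. Of these 15, 14 were among the 18 of the main test. With this score 1729 of all genes were called higher, against 1821 without it. Of 8 tendon cell markers 0 passed. Their median log2 change was 0.36 averaged over genotypes, with -0.13 in mCK-hLPL and 0.76 in WT. Their sum was 157 to 266 CPM in mCK-hLPL_REL and 95.7 to 368 CPM in mCK-hLPL_WLM. In WT the sum was 106.8 to 459.8 CPM in WT_REL and 68.2 to 448 CPM in WT_WLM. With a tendon score as a covariate, also added later, 18 collagen genes passed, where 1731 of all genes were called higher. Of these 18 collagen genes, 15 were among the 18 of the main test. Of the other collagen-making cells, 3 of 10 smooth muscle and pericyte markers (Cspg4, Cnn1, Kcnj8) and 3 of 8 endothelial markers (Tek, Emcn, Kdr) rose, and the endothelial Cldn5 fell. Adgre1 rose among 7 macrophage markers. Of 7 muscle fibre markers 3 fell (Myh4, Myh1, Mb), all 6 erythroid markers rose and all 8 lymph node markers tested fell. The lymph node sums reached 36.5 to 44.5 CPM in 3 WLM libraries, and 0 of the 8 markers passed within either genotype. Median sums were 0.999 CPM in mCK-hLPL_REL and 0.971 CPM in mCK-hLPL_WLM, with 0.558 CPM in WT_REL and 1.69 CPM in WT_WLM. Erythroid markers summed to 1775 to 11655 CPM in mCK-hLPL_REL and 870.2 to 3109 CPM in mCK-hLPL_WLM, with 1017 to 4482 CPM in WT_REL and 497 to 1694 CPM in WT_WLM. The fibroblast and tendon scores are the log2 of a marker sum, so the runs with them do not measure the part of those cells. The part of the cells named here in the collagen changes was not tested.

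**Figure D5:**
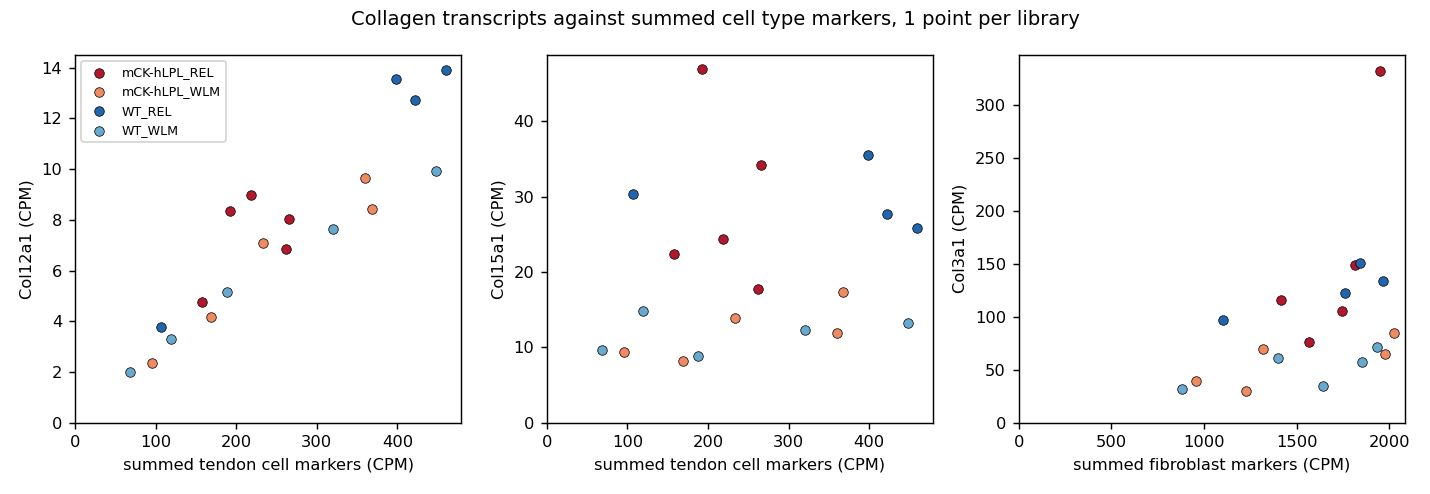
CPM of Col12a1 and Col15a1 against summed tendon cell markers, and of Col3a1 against summed fibroblast markers, 1 point per library, REL dark and WLM light within each genotype. WT_REL replicate A, at 106.8 CPM of tendon markers, has 3.78 CPM of Col12a1, below the 12.7 to 13.9 CPM of the other WT_REL libraries. Its Col15a1, at 30.4 CPM, lies within their 25.9 to 35.5 CPM. It is also the lowest WT_REL library in fibroblast markers, at 1102 CPM.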

How the data were processed

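Per the labels' protocols, RNA of frozen muscle was purified on RNeasy columns and sequenced as NuGEN Universal Plus mRNA libraries. The deposited table holds raw gene counts, 1 column a library. The submitters' processing notes name Salmon (0.14.2) and DESeq2 (1.28.1), with mm10 and GRCm38 as builds; what each did, the strandedness and the gene models are not stated there. The file's sheet name speaks of normalized values, but the columns are whole and their totals differ, so they were read as counts. Spreadsheet software changed 24 symbols to dates (0.0628% of counts). WT_REL has 2 columns whose numbers match no title; these libraries are called A and B.

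Genes were kept by filterByExpr (minimum count 10, minimum total 15), scaled by TMM (factors 0.880 to 1.166, higher in most REL libraries) and tested with edgeR 4.0.16 (glmQLFit, glmQLFTest; R 4.3.3) as 4 group means over 19 libraries, two-sided, with Benjamini-Hochberg adjustment over 17028 genes. SE is the log2 change divided by the square root of F. DESeq2 1.42.0 and limma 3.58.1 (voom) gave alternatives, with other scalings and filters, a replicate block, and libraries left out singly. The script was tested on simulated data. Genes were named by a rule: any collagen gene past the threshold, the 10 highest per kb, those on which edgeR and DESeq2 differed, and up to 4 genes per other list. The members and lists were chosen with earlier results of these data known. Of 36 replicate pairs, none agreed within sampling noise (smallest chi-square 25.7 per degree of freedom). All 44 symbols matched GENCODE M21; promoter windows are from RefSeq. Some members of the marker and pathway lists are not reported here.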

Additional observations from a re-analysis of the deposited data

Results flagged for a closer look

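Among 84 groups of 4 or 5 libraries looked at for a library far from its group, 1 stood out. Chance gives about 1 in 20 such groups, so 1 flag among 84 is no more than chance gives. Col3a1 was at 332 CPM in mCK-hLPL_REL replicate 2, with the next library of the group at 149 CPM and the lowest at 76.3 CPM, so the gap was 0.717 of the range. The same library had the highest collagen sum of all 19, 1505 CPM. It also had the highest sums of epidermal markers (12.5 CPM, at most 2.27 CPM in the other 18), macrophage markers (191 CPM, at most 156 CPM) and fat cell markers (477 CPM, at most 462 CPM). The part of these markers in the Col3a1 value was not tested; without this library the log2 change of Col3a1 in mCK-hLPL was 0.96 and did not pass.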

How the results depend on the processing

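For refeeding averaged over genotypes, the count of 18 collagen genes stayed between 15 and 21 under every alternative except the replicate block, and between 14 and 20 with single libraries left out. Same-numbered libraries showed weak and mixed correlations of their deviations (r from -0.356 to 0.211 over 21 pairs, 7 over 0.1). In groups this small these do not decide whether the numbers pair libraries, and the main test used no block. With the replicate block over 17 numbered libraries 5 collagen genes passed on average, 1 in mCK-hLPL and 0 in WT. Calls over all genes were then 992, 484 and 32, against 3521, 1387 and 831 in the main test. Without the block the same libraries gave 15, 3 and 1 collagen genes, and 2170, 1169 and 166 calls over all genes. In mCK-hLPL (5 genes) the count was 9 with DESeq2, 8 with voom and library weights, 11 without the 3 libraries highest in liver markers, 1 without those with lymph node transcripts and 3 with the 2 groups alone. Calls over all genes were 2001, 1687, 1573, 608 and 628 in the same order, against 1387 in the main test. Among alternatives added after seeing the data the collagen count was 13 with the tendon score, 8 with the fibroblast score and 1 without mCK-hLPL_REL replicate 2 and WT_REL replicate A. There the calls over all genes were 1751, 1140 and 543. In WT (4 genes) these alternatives gave 8 with DESeq2, 1 without the lymph node libraries, 2 without the liver libraries, 2 with the tendon score, 9 with the fibroblast score and 8 without the 2 named libraries. Calls over all genes in WT were 1345, 316, 462, 498, 1033 and 768 in the same order, against 831. Single libraries left out gave 1 to 9 collagen genes in mCK-hLPL and 1 to 5 in WT. Collagen counts for genotype and interaction were 0 under each alternative run. The Col1a1 to Col1a2 difference ran from 0.442 to 0.505 with single libraries left out. No result changed sign. Collagens below 1 CPM rest on few counts.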
